A study of Drosophila melanogaster with 3 samples.

Results

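The 8 genes described here encode insulator proteins of Drosophila melanogaster: CTCF, su(Hw), Cp190, BEAF-32, mod(mdg4), M1BP, pita and ZIPIC. They were taken by name from the 13945 protein-coding genes of the annotation, and a gene was given every thresholded Combgap peak whose summit lay in its body or within 5 kb of it. The rule that defines the members uses no measured value. Of the 8 genes, 6 had such a summit, beside 46.7% of all protein-coding genes, and M1BP and ZIPIC had none. There were 18 such summits among the 7913 of the thresholded list. Of these, 10 were nearest to a start of another gene, including all those of CTCF and BEAF-32. They also include a mod(mdg4) summit whose nearest start belongs to units annotated within mod(mdg4) itself.

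Combgap, the zinc-finger protein encoded by cg, was mapped in whole embryos by ChIP-seq, the sequencing of immunoprecipitated chromatin. The transgenic cg-GFP line carries green fluorescent protein (GFP) on the C-terminal end of Combgap, and chromatin of 200 to 800 bp was recovered with an antibody against GFP. All 3 samples were biological replicates of 1 group, embryos of 0 to 24 h and both sexes, with no other genotype or treatment, so no contrast between conditions exists. Every value averages all embryonic tissues and stages, and strong binding in few cells cannot be told apart from weak binding in many. The lists of the single replicates and of the pooled alignments held 30000 peaks each. The scale of the peak signal differed between lists, so signal is given as a rank within a list, where 1 is the highest, or as a multiple of the median of that list. Read depth is unknown, so a gene without a peak may reflect depth.

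Insulator proteins bind chromatin at boundaries between domains and limit which enhancers reach which promoters. In Drosophila several of them bind DNA directly through zinc fingers or a BED finger, and recruit shared cofactors of the BTB family. Many of their sites lie at promoters of housekeeping genes, and some lie in the boundaries of the bithorax complex. Combgap binds GTGT elements, and it has a known part in bringing Polycomb group proteins to DNA.

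Sequences from peaks of mod(mdg4) and Cp190, which encode the cofactors, are shown because they hold the highest and the lowest of the 6 best summits. They are read on the plus strand of release 6 (dm6), 5′ to 3′. Capitals mark a GT run, which is an alternation of G and T that holds GTGTGT or, on the other strand, one of A and C that holds ACACAC, or the 8-base motif TATCGATA, the element bound by the promoter factor DREF. The highest mod(mdg4) summit lies at the centre of chr3R:21376482-21376542 and the summit between mod(mdg4) and tin at the centre of chr3R:21378794-21378854. The GT run beside the inner mod(mdg4) summit lies in chr3R:21359529-21359558, a stretch that does not reach the summit itself. For Cp190, the intron summit lies at the centre of chr3R:15274957-15275017 and the start-site stretch is chr3R:15275225-15275254.
mod(mdg4) highest summit: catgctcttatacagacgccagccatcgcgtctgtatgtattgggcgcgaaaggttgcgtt
run beside the mod(mdg4) inner summit: caatcggtgCACACACACAgacgcacatac
summit between mod(mdg4) and tin: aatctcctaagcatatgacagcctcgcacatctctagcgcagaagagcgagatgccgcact
Cp190 intron summit: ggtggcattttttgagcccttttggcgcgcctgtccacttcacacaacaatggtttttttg
Cp190 start-site summit: tgcgctcggcagcTATCGATAgccatgcga
Both mod(mdg4) and Cp190 thus had their highest summit without GTGTGT. The Cp190 intron stretch holds CACACA, an alternation of the same length in the other phase, which was not counted as a GT run.

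The highest Combgap peak of the 8 genes stood near the start of mod(mdg4), which encodes a BTB protein that binds Su(Hw) and forms many isoforms with different C-terminal ends. The gene (FBgn0002781, chr3R:21350846-21377401, minus strand) is 26.6 kb long, with 22 annotated transcripts from 1 start site. Its summit at 21376512 lay 889 bp downstream of that start, in an intron, within a peak 1314 bp wide. It ranked 641 in the thresholded list, at 5.04 times the list median. The overlapping peak ranked 690 in replicate 1, 486 in replicate 2 and 692 in replicate 3, a mean of 622.7 ± 118.4 (SD, n = 3). In multiples of each replicate's own median the signal was 26.8, 26.5 and 24.6. All 3 replicates thus placed this peak within their 1000 highest of 30000. The same interval held another summit at 21376711 in a coding exon, 690 bp from the start, at rank 2440, and the replicate peaks with the nearest summits ranked 2517, 2931 and 2845. Neither summit had GTGTGT on either strand within 100 bp.

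A separate peak lay deep in the mod(mdg4) body. Its summit at 21359593, 17808 bp downstream of the start, ranked 1398 in the thresholded list at 2.99 times the median. The replicates ranked it 1328, 1734 and 1551, a mean of 1538 ± 203 (SD, n = 3). The mod(mdg4) locus is known for trans-splicing, and the annotation lists 23 pre-mod(mdg4) genes in its body, the units that supply alternative ends to the protein. These 23 genes share 7 distinct start sites, of which 2 had a thresholded summit within 1 kb, in both cases this inner summit. Through it, 10 of the 23 genes had a start-site summit, beside 22.9% of all protein-coding genes. The inner summit lay 175 bp from a start shared by 8 pre-mod(mdg4) genes, in their 5′ UTR. It had a GT run of 10 bases at 46 bp from the summit, the one printed above.

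The flanks of mod(mdg4) held further peaks, each nearer to the start of a neighbour. On the promoter side, a summit at 21378824 lay 1423 bp outside the gene and 153 bp from the start of tin, the homeobox gene tinman of heart development. It ranked 1256 in the thresholded list, and 1324, 1101 and 1382 in the replicates. On the other side, a summit at 21349484 in the 5′ UTR of aus, 117 bp from its start, ranked 5443, with replicate ranks of 5242, 6261 and 5505. A summit at 21348467 in a coding exon of aus ranked 6926, with replicate ranks of 6856, 6673 and 7862. The peak on the tin side was thus high in every replicate, and the pair at aus lay in the lower part of the thresholded list.

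**Figure D1:**
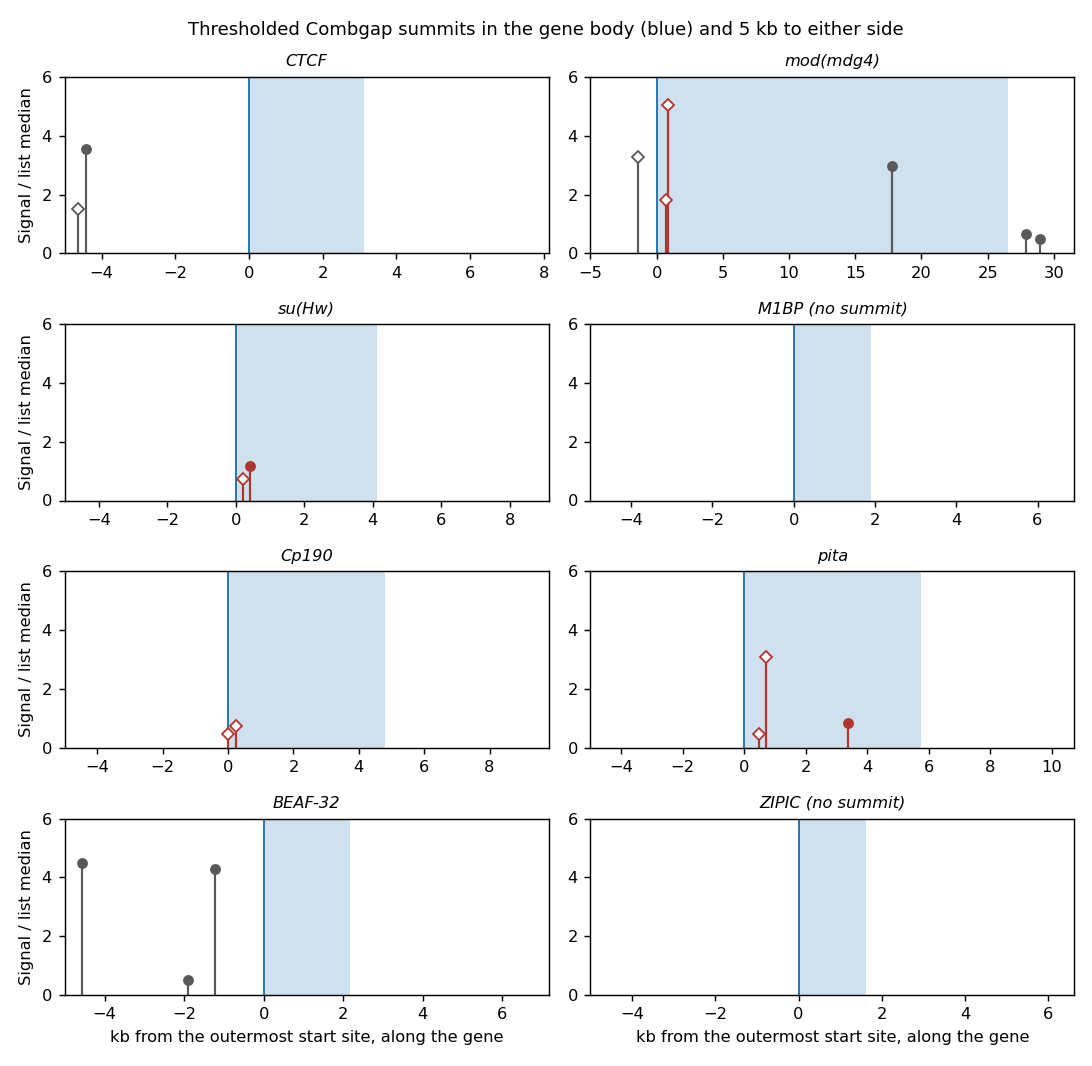
Thresholded Combgap summits at the 8 genes. Each panel plots kb from the outermost start site along the gene against signal as a multiple of the thresholded list's median; the blue band is the gene body, red marks summits within 1 kb of a start site of the gene itself, filled circles mark GTGTGT within 100 bp and open diamonds its absence. The highest mod(mdg4) summit reaches 5.04 times the median, CTCF and BEAF-32 have summits outside the body alone, and M1BP and ZIPIC have none.

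Cp190, the BTB cofactor recruited by most of the DNA-binding insulator proteins, had the lowest of the 6 highest summits. The gene (FBgn0000283, chr3R:15270432-15275241, minus strand) has 2 start sites. Its summit at 15274987 lay in an intron, 254 bp downstream of the outer start and 197 bp upstream of the inner one. It ranked 5066 in the thresholded list, at 0.733 times the median. The replicates ranked it 5047, 5545 and 5139, a mean of 5244 ± 265 (SD, n = 3). In multiples of the replicate medians the signal was 4.21, 3.39 and 3.97. Each replicate placed it below its 5000 highest peaks. The other summit, at 15275235 in the 5′ UTR and 6 bp downstream of the outer start, ranked 7086, and the nearest replicate summits ranked 9778, 8860 and 7741. Neither summit had GTGTGT within 100 bp. The summit at the start had TATCGATA there, and it was the 1 summit of the 18 that did.

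CTCF, the zinc-finger insulator protein conserved from flies to mammals, had no peak in its own body. The gene (FBgn0035769, chr3L:7353578-7356713, minus strand) had both of its summits 4432 and 4636 bp beyond its promoter. They lay in an intron of the neighbour Sec63, 584 and 788 bp from the Sec63 start, within a single peak of 1141 bp. The higher one, at 7361145, ranked 1124 in the thresholded list at 3.56 times the median. Its replicate ranks were 1190, 1077 and 1159, a mean of 1142 ± 58.4 (SD, n = 3). The replicate signals were 19, 17 and 18 times the median of each list. These ranks had the smallest SD of the highest summits of the 6 genes. The summit at 7361349 ranked 2888, with nearest replicate summits at ranks 3197, 3479 and 3258. The pooled list, down to its lowest peak, held no summit in the CTCF body. The stretch with the higher summit is shown because it also holds 2 GT runs, in capitals, within 100 bp of that summit. It is chr3L:7361100-7361160 on the plus strand of release 6.
CTCF flank, highest summit: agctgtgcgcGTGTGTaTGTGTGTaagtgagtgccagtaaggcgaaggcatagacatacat

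The gene su(Hw) encodes the zinc-finger protein that binds the gypsy insulator. The gene (FBgn0003567, chr3R:14304455-14308589, minus strand) had 2 summits, both in its 5′ UTR. The higher one, at 14308177, lay 412 bp downstream of its single start site and ranked 3484, at 1.18 times the list median. Its replicate ranks were 3535, 3665 and 3999, a mean of 3733 ± 239 (SD, n = 3), and its signals were 6.63, 5.58 and 5.42 times the replicate medians. The peak thus stood near the middle of the thresholded list. The summit at 14308378, 211 bp from the start, ranked 5109, and the nearest replicate summits ranked 5029, 5951 and 7870. Its replicate ranks averaged 6283 ± 1449 (SD, n = 3), a wider spread than that of the higher summit.

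BEAF-32, whose BED finger binds CGATA clusters near housekeeping promoters, had high peaks beside it and, in the thresholded list, none over it. The gene (FBgn0015602, chr2R:14770469-14772630, plus strand) has 3 start sites, and its 3 summits were all upstream, in an intron of the neighbour Spred. The summit at 14765898, 4571 bp outside BEAF-32, ranked 773 in the thresholded list at 4.49 times the median. The replicates ranked it 824, 926 and 726, a mean of 825.3 ± 100 (SD, n = 3). The summit at 14769244, 1225 bp outside, ranked 838 at 4.28 times the median, with replicate ranks of 850, 998 and 809, and it lay 179 bp from the Spred start. Both were among the 1000 highest peaks of the thresholded list and of each replicate. A summit at 14768562, 1907 bp outside, ranked 6942, and the nearest replicate summits ranked 9532, 5007 and 6959, the widest spread of the 18. All 3 summits had GTGTGT within 100 bp. At the BEAF-32 start itself the pooled list had a peak 4 bp away at rank 9702, outside the thresholded list, and the replicates had peaks there at ranks 10088, 10844 and 10143. Its signal was 1.69, 1.46 and 1.64 times the replicate medians. The start of BEAF-32 therefore carried a weak peak in every replicate that did not reach the thresholded list.

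The gene pita encodes a zinc-finger protein that binds boundaries of the bithorax complex and interacts with Cp190. It (FBgn0034878, chr2R:23548967-23554712, minus strand) has 2 start sites. Its highest summit, at 23553991, lay in an intron, 721 bp downstream of the outer start, and ranked 1349 at 3.08 times the median. The replicates ranked it 1421, 1653 and 1274, a mean of 1449 ± 191 (SD, n = 3), with signals of 16.5, 12.5 and 16.8 times their medians. Another summit of the same intron, 475 bp from the outer start, ranked 7246 in the thresholded list, while the nearest replicate summits ranked 3953, 4357 and 3899. All 3 replicates thus placed that summit higher than the thresholded list did. The remaining summit lay in the 5′ UTR of both pita and the caspase gene Dcp-1, 202 bp downstream of the inner pita start and 36 bp from the Dcp-1 start. It ranked 4559, with replicate ranks of 4971, 5055 and 4701, and it alone of the pita summits had GTGTGT within 100 bp.

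M1BP and ZIPIC had no thresholded summit. M1BP (FBgn0037621, chr3R:8729790-8731698), the factor that binds the core-promoter element Motif 1, had no peak with a summit in its body or within 5 kb in the pooled list or in any replicate list. The nearest thresholded summit was 16361 bp away, at rank 1508. Of all protein-coding genes, 33.4% likewise had no pooled summit in that window. ZIPIC (FBgn0039740, chr3R:30035240-30036870), a zinc-finger protein that interacts with Cp190, had a peak in replicate 2 alone. It ranked 7415 there, at 2.34 times the median, and its summit lay 4987 bp outside ZIPIC in an intron of Axn. No peak of the pooled list overlapped it. Among the 7913 highest peaks of replicate 2, only 9 (0.114%) overlapped no peak of replicates 1 and 3. The nearest thresholded summit was 13209 bp from ZIPIC, at rank 354.

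**Figure D2:**
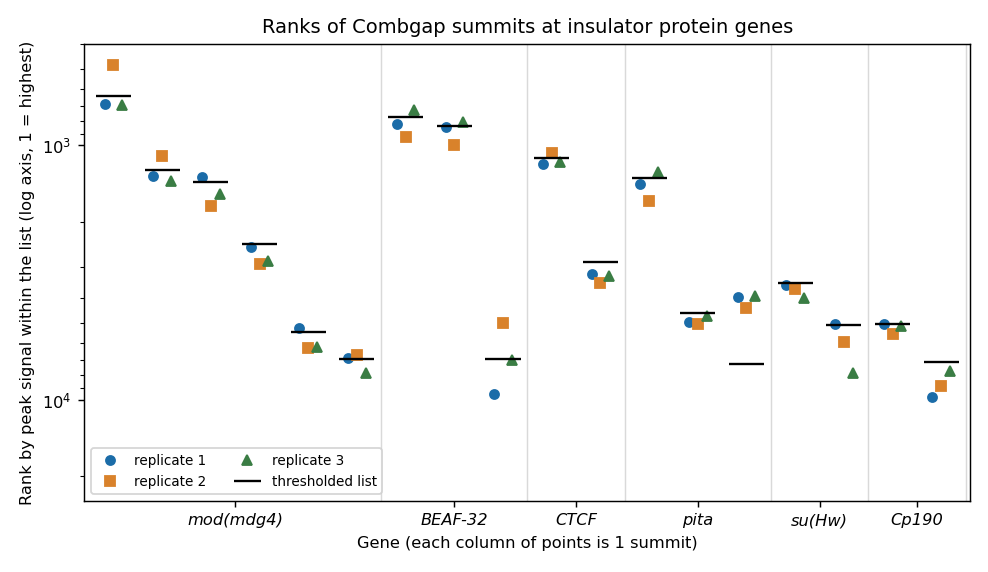
Rank by peak signal of each of the 18 summits (log axis, 1 is the highest), by gene; symbols are the 3 replicates, taking the overlapping peak with the nearest summit, and bars are the thresholded list. The highest summit of mod(mdg4) lies between ranks 486 and 692 in the replicates, and that of Cp190 between 5047 and 5545.

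The order of the 6 genes by their highest summit was mod(mdg4), BEAF-32, CTCF, pita, su(Hw) and Cp190. All 3 replicates gave this order. No 2 neighbours in it had replicate ranks that overlapped. The 18 summits ranged from rank 641 to 7246 in the thresholded list, with a median of 3186 against 3957 over the whole list. Of the 18, 3 were among the 1000 highest of the 7913, and 10 (55.6%) were among the 3956 highest of the 7913. The BEAF-32 summits among those 3 lay in an intron of Spred. All 18 lay in peaks that overlapped a peak of every replicate list by at least 1 bp, as did 99.8% of all thresholded peaks, so that overlap did not set these genes apart. In 3 intervals several summits of a gene shared 1 peak. Of neighbouring summits of the same gene, 5 pairs were under 300 bp apart, from 199 to 248 bp. Over the whole list, 18.6% of neighbouring summits were under 300 bp apart, and the narrowest gap was again 199 bp.

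The share of genes with a summit in the body or within 5 kb was 46.7% over all protein-coding genes, beside 6 of the 8 here. This share rose with the length of the body. It was 33.8% under 2 kb, the class of M1BP and ZIPIC, neither of which had a summit. It was 48.3% from 2 to 5 kb, the class of CTCF, su(Hw), Cp190 and BEAF-32, all of which had one. It was 65.4% from 5 to 15 kb, the class of pita, and 74.9% over 15 kb, the class of mod(mdg4), and both had summits. The genes with and without a summit were therefore split by length in the same direction as the genome. A count of 8 genes allows no more than this description.

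**Figure D3:**
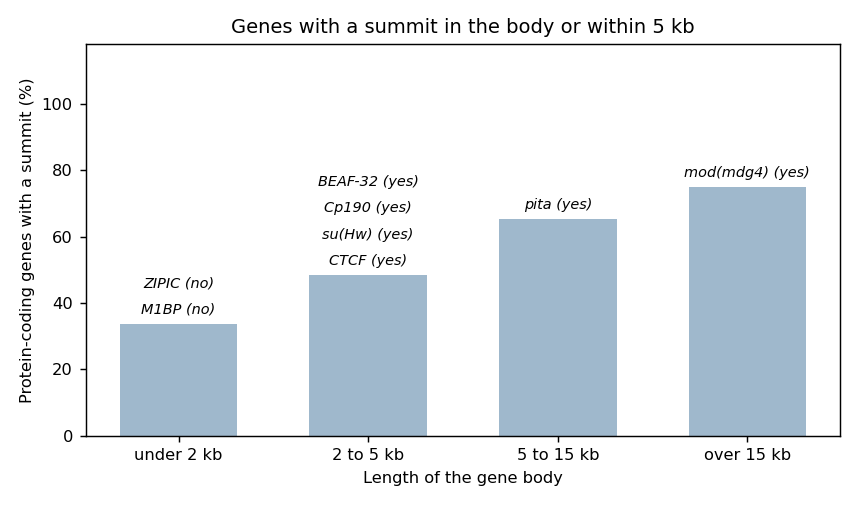
Share of protein-coding genes with a thresholded summit in the body or within 5 kb, as a percentage, in 4 classes of body length. The insulator genes are written over their class with yes or no for such a summit; the share rises from 33.8% to 74.9%.

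A summit within 1 kb of a start site is a narrower criterion, met by 22.9% of protein-coding genes and by 4 of the 8: su(Hw), Cp190, mod(mdg4) and pita. They are the same 4 genes that had a summit in the body. Ranked by their best start-site summit among the 3192 genes that had one, mod(mdg4) was in place 610, pita 1158, su(Hw) 2147 and Cp190 2541. Nearest by start site to at least 1 of their summits were 4 of the 6 genes, beside 48.2% of all genes with a summit in the window. Of the 18 summits, 8 were nearest to a start of the gene itself and 10 to a start of another gene. The CTCF and BEAF-32 summits were all of the latter kind, nearest to Sec63 and Spred. Also counted there was the inner mod(mdg4) summit, nearest to a start of pre-mod(mdg4) genes, which the annotation lists within the mod(mdg4) body. Of the 9 summits within 1 kb of an own start, 8 lay downstream of the nearest one. Over all genes 48.5% of such pairs had the summit downstream. The exception was the Cp190 intron summit, upstream of the inner start and downstream of the outer one. The 9 summits came from 4 genes, and each of these genes had a pair of them 199 to 248 bp apart. They are therefore not independent of each other.

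The distance of 5 kb divided close cases. The summits farthest out that were still counted lay 4636 bp from CTCF and 4571 bp from BEAF-32. The nearest ones left out lay 5544 bp from Cp190, at rank 2874, and 5759 bp from su(Hw), at rank 1667. Farther out, 7632 bp from BEAF-32 and at rank 4784, lay a summit whose nearest start was that of BEAF-32. With a window of 2 kb, CTCF had no summit and 5 genes did, beside 33.1% of all genes. With the body alone, 4 genes did, beside 17.9%. With a window of 10 kb the 6 genes were joined by neither M1BP nor ZIPIC, while 61.6% of all genes had a summit.

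GT runs were read in the body and 5 kb to either side of each gene. GTGTGT on either strand lay within 100 bp of 9 of the 18 summits, and of 63.3% of all thresholded summits. Of the 9 summits at own start sites, 2 had it, the higher one of su(Hw) and the one shared by pita and Dcp-1. Of the other 9, 7 had it. The shares over all start-site summits and over all other summits were not computed, so this split has no genome-wide value beside it. The 8 windows held 75 GT runs that hold GTGTGT on either strand, and 12 (16.0%) had a summit within 100 bp, against 8.59% of the 101879 runs on the 6 chromosome arms. CTCF had 4 runs with 2 of them at a summit, su(Hw) 3 with 1, BEAF-32 12 with 4, mod(mdg4) 24 with 4 and pita 7 with 1. The 2 CTCF runs shared a summit, as did the BEAF-32 runs of 13 and 20 bases. Runs that share a summit are not independent of each other. The summits at the CTCF and BEAF-32 runs lay in introns of the neighbours Sec63 and Spred. Cp190 had 9 runs, M1BP 7 and ZIPIC 9, and none of these had a summit within 100 bp. With alternations in the other phase, TGTGTG and CACACA, counted too, a choice made after seeing the data, 15 of 121 runs (12.4%) had one, against 7.13% on the arms. Cp190 then had 1 of 16 at a summit, the CACACA in its intron, while M1BP had 0 of 12 and ZIPIC 0 of 13. The genes without a thresholded summit thus had GT runs too, at 0.588 per kb for M1BP and 0.774 per kb for ZIPIC. The value was 0.761 per kb over the arms. Among the insulator genes with a summit it ranged from 0.212 per kb for su(Hw) to 0.987 per kb for BEAF-32.

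**Figure D4:**
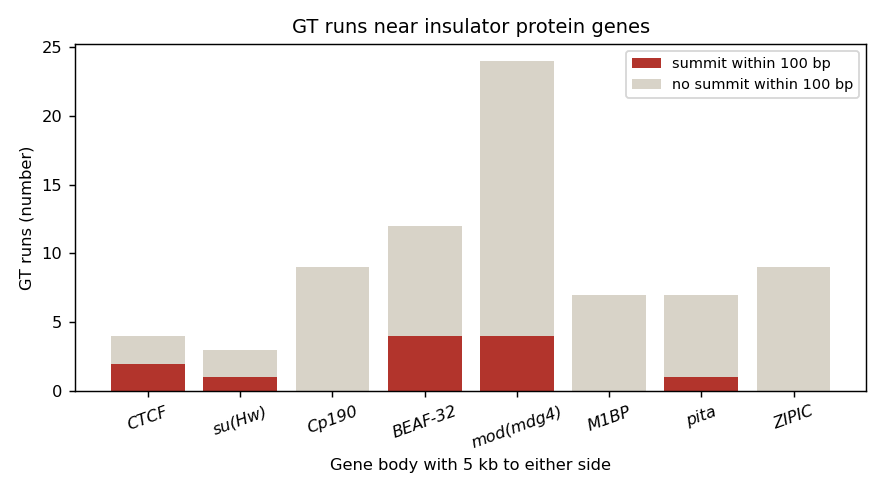
Number of GT runs that hold GTGTGT on either strand in the body and 5 kb to either side of each gene; the red part of a bar counts runs with a thresholded summit within 100 bp and the grey part the others. Cp190, M1BP and ZIPIC have 9, 7 and 9 runs with no red part, and mod(mdg4) has 4 of 24.

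Longer runs were few. Of the 5 runs of at least 10 bases in these windows, 4 had a summit within 100 bp, against 19.7% of such runs on the arms. The longest were 3 runs of 13, 15 and 20 bases, all in the BEAF-32 window and within 40 bp of its summits at ranks 773 and 838. All 3 lay in an intron of Spred, and those of 13 and 20 bases shared the summit at rank 773. The 4 runs are therefore not independent of each other. The inner mod(mdg4) summit had the run of 10 bases. The run with no summit belonged to the ZIPIC window, 13133 bp from the nearest one, in the 3′ UTR of Axn.

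The ZIPIC run is printed beside the CTCF summit runs given above because it is longer than either and had no summit within 100 bp in any list. It lies in chr3R:30035154-30035183 on the plus strand of release 6, with the run in capitals.
ZIPIC window, run without a summit: gttaatgcatACACACACACttactataca

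The promoters of these genes, taken as 250 bp before to 50 bp after each start site, were searched on both strands for motifs of insulator and promoter factors. TATCGATA, which contains the CGATA bound by BEAF-32, was present for 5 of the 8 genes and for 10.2% of all protein-coding genes. CGATA by itself was present for 6 of the 8 and for 53% of all genes. The 5 with TATCGATA were CTCF, Cp190, BEAF-32, mod(mdg4) and pita. The summits lay away from most of these elements. The nearest thresholded summit was 4414 bp away for CTCF, 1019 bp for BEAF-32, 741 bp for mod(mdg4) and 540 bp for pita. For Cp190 it was 7 bp at the outer start and 179 bp at the inner one. TATCGATA was found within 100 bp of 1.09% of all thresholded summits. GGTCACAC, the core of Motif 1, was present for su(Hw) and ZIPIC, beside 8.71% of genes, and at none of the 18 summits. GTGTGT was in the promoter of mod(mdg4) alone of the 8, beside 21.6% of genes. GAGAG, the element of GAGA factor, was present for pita alone of the 8, beside 36.3% of genes, and near 6 of the 18 summits, beside 41.8% of all. TGCATA, found in Su(Hw) sites, was present for M1BP and pita, beside 19.2% of genes, and near 2 of the 18 summits, beside 13.7%. CGATA was near 5 of the 18, beside 21.1%. The motif AGNNGGCGC of CTCF was in no promoter of the 8 genes, beside 3.86% of genes, and at none of the 18 summits, which says only that these letters were not in these windows.

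The TATCGATA elements of the promoters on chromosome 3 are printed to show the shared core, in capitals, on the plus strand of release 6. They lie in chr3L:7356716-7356745 for CTCF, chr3R:15274793-15274822 and chr3R:15275227-15275256 for Cp190 and chr3R:21377437-21377466 for mod(mdg4).
CTCF: gtaccgccagcTATCGATAgttcgattggt
Cp190 inner start: caactcgcaaaTATCGATAtacgcctgtgt
Cp190 outer start: cgctcggcagcTATCGATAgccatgcgata
mod(mdg4): aagtgacaataTATCGATAgcttaaaatat

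A list of 28 genes for proteins that work with insulator proteins was described by the same start-site criterion. Of these, 12 (42.9%) had a summit within 1 kb, beside 22.9% of all genes. The list was chosen with earlier results of these data known, so this share is a description and no support for enrichment. The wider criterion, a summit in the body or within 5 kb, was met by 16 of the 28, beside 46.7% of all genes. Body length was not matched for this list. Among 10 further DNA-binding factors 3 had one. Trl, which encodes GAGA factor, ranked 823, with replicate ranks of 931, 718 and 827. Elba2 and insv, of the Elba and Insensitive insulator factors, shared a summit at rank 2447, counted for both. It lay 78 bp from the insv start and 931 bp from that of Elba2. Clamp, dwg, Ibf1, Ibf2, Elba1, Dref and pzg had none. Among 9 cofactors 5 had one. The highest was at fs(1)h, the BET bromodomain gene, at rank 60 and at replicate ranks of 43, 63 and 65. JIL-1, a histone H3 kinase gene, ranked 911, with replicate ranks of 872, 1361 and 811. The other summits were at shep (4302), Chro (6512) and l(3)mbt (7078), each given with its rank in the thresholded list. HIPP1, Topors, rump and e(y)2 had none within 1 kb of a start, while HIPP1 and rump each had a summit in the wider window.

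Of 7 cohesin genes 3 had a start-site summit. The highest was at wapl, which encodes the cohesin release factor, at rank 321 and at replicate ranks of 315, 425 and 244. The summits at pds5 and SMC1 ranked 1311 and 7133. SMC3, vtd, SA1 and Nipped-B had none near a start, while SMC3 and SA1 each had a summit in the wider window. Of the 2 condensin II genes, Cap-H2 had a summit at rank 1191 and Cap-D3 had none. The peaks at fs(1)h and wapl were higher in every replicate than the highest peak of the 8 insulator genes, and those at Trl and JIL-1 were lower in every replicate.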

How the data were processed

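Combgap ChIP-seq peak lists on dm6 were used: 1 for each of 3 replicates, 1 called on pooled alignments and 1 thresholded by irreproducible discovery rate. Per the deposited text listings, all replicates shared 1 control alignment. Not given in the sources used here are the aligner, peak caller, IDR threshold and control library. Each peak's signal is the authors' value, as deposited. The −log10 q values deposited by the authors stood at 4.35 for every thresholded peak and ranked nothing. Summits were placed from the deposited offsets, in bp. Read depth is unknown. No column of another series was present (0).

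The thresholded peaks were identical to the 7913 highest pooled peaks. Genes and start sites came from Ensembl release 115 (BDGP 6.54), and sequence from RefSeq release 6, whose chromosome lengths match dm6. Ranks were computed within each list by signal. A peak in a replicate was the highest one overlapping by at least 1 bp. For the lower summits of shared or overlapping intervals it was the overlapping one with the nearest summit. Motifs were sought within 100 bp of summits. A mean ± SD is over replicates. No test was possible in 1 group, so counts are given beside those over all features. Placement was tested on simulated data, where 200 of 200 planted summits were found in the window of their gene. The work used Python 3.11.15, numpy 2.4.6, pandas 2.3.3 and matplotlib 3.10.9. The members and lists were chosen with earlier results of these data known. Every member was named whatever its values, and the associated genes came from a list written with that knowledge.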

Additional observations from a re-analysis of the deposited data

How the results depend on the processing

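The count of 18 summits depended on the window and the list: it was 10 with the gene body alone, 10 with 1 kb to either side and 10 among the 3956 highest thresholded peaks, and it was 14 with 2 kb, 25 with 10 kb and 12 with 1 summit for each merged region. The number of genes with a summit in the window ranged from 4 to 6 over the windows and lists tried, and with a start-site summit from 3 to 5. CTCF and BEAF-32 lost their summits with 1 kb, mod(mdg4) left the start-site count at 500 bp, BEAF-32 joined it at 2 kb and in the pooled list, and Cp190 had none among the 3956 highest. GTGTGT lay within 50 bp of 6 summits, beside 47% of all summits, and within 250 bp of 11, beside 80.6%. Counting alternations in either phase, added after seeing the data, gave 15 GT runs with a summit in place of 12. Among the associated genes the start-site count was 10 at 500 bp and 13 at 2 kb. All 18 summits stayed overlapped with each replicate left out. The mean ranks of the highest summits then ranged from 588 to 691 for mod(mdg4), 775 to 875 for BEAF-32, 1118 to 1174.5 for CTCF, 1347.5 to 1537 for pita, 3600 to 3832 for su(Hw) and 5093 to 5342 for Cp190. No paired analysis was possible because there was 1 group. Lists capped at 30000 peaks and unknown depth limit what a missing peak says, and signal cannot be compared between lists as a level.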

Other observations

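Among all genes with a start-site summit, those whose 3 replicate ranks were most like those of the highest mod(mdg4) summit were Dll, Svil and kay, by the mean absolute log2 ratio of ranks over the 3 replicates. Dll, the homeobox gene of distal appendages, had ranks of 676, 450 and 660 and a mean of 0.0696. Svil had ranks of 721, 553 and 697 and a mean of 0.0867. The gene kay, which encodes the Fos subunit of AP-1, had ranks of 598, 493 and 665 and a mean of 0.0948. They were picked for these ranks, so the likeness is a description.

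Outside the thresholded list, weak peaks lay at start sites of some insulator genes and in a 3′ UTR. The mod(mdg4) start and the inner pita start also had a thresholded summit within 1 kb. An inner start of BEAF-32 had a pooled summit 26 bp away at rank 16024, with replicate peaks at ranks 25681, 9826 and 18161. The mod(mdg4) start had a pooled summit 58 bp away at rank 14821, with peaks in replicates 1 and 2 at ranks 10370 and 11406 and none listed for replicate 3. The inner start of pita had a pooled summit 1 bp away at rank 8654. Cp190 had a pooled summit in its 3′ UTR at rank 24385.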
